A study of Xenopus laevis with 3 samples.

Results

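Translation initiation and elongation factors were examined for coding sequence variants in Xenopus laevis, the African clawed frog, an allotetraploid whose genes often exist as a copy on the long (L) and a copy on the short (S) subgenome. Members were the genes of the table of L and S copies whose name begins with eif or eef and a digit, which gave 31 of 8660 gene pairs, or 62 copies. The authors' per-gene table lists a copy only where it holds at least 1 missense site, a position at which a variant changes the amino acid, and 16 of the 62 copies were listed there, of 11603 listed copies in all. They held 22 of the 29008 missense sites of the series.

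The sites came from RNA sequencing of whole embryos at Nieuwkoop-Faber (NF) stage 42, with 3 libraries and 1 library per group. The groups were offspring of inbred albino by inbred pigmented matings in both directions (BxJ, JxB), offspring of inbred albino animals, and offspring of inbred pigmented (J Strain) animals. RNA was isolated from pools of 10 tadpoles per cross, and the submitters state 30000000 to 47000000 paired-end reads of 100 bases per library. No column of the tables names a library, so no value below can be assigned to a library. Whether all 3 libraries contributed to each value is not stated. No cross could be compared with another and no spread between replicates could be measured. The read depth behind a site is unknown. A copy outside the table may lack missense sites or may have been covered too thinly to show them, and these cannot be told apart here.

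Translation begins when initiation factors place the initiator tRNA and the small ribosomal subunit on an mRNA, bring that complex from the cap to the start codon, and join the large subunit. Elongation factors then deliver aminoacyl-tRNAs and move the ribosome along the message. Most of these proteins are made in nearly all cells, and most of their sequences are strongly conserved among eukaryotes. Regulatory kinases, such as that of elongation factor eEF2, slow protein synthesis when energy or nutrients are short.

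The share of translation factor pairs without a copy in the table was close to that of other pairs with a symbol. In 16 of the 31 pairs neither copy was listed: eif1ax, eif2s3, eif2b1, eif3i, eif3l, eif3s4, eif4b, eif4e, eif4e-like.1, eif4e3, eif4g2, eif4ebp2, eif5a, eif6, eef1a2 and eef2.1. These include the cap-binding protein eIF4E, the gamma subunit of eIF2 (eif2s3), which holds the initiator tRNA, the hypusine-bearing factor eIF5A and the tRNA carrier eEF1A2. The name eif3s4 is an older one for eIF3g, and RefSeq's table for assembly Xenopus_laevis_v10.1 gives it as a synonym of eif3g.L and eif3g.S. The share of pairs with neither copy listed was 51.6%, against 49.8% of the 6799 other pairs with a symbol.

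Listed copies numbered 7 on L and 9 on S. Counted by copy, 25.8% of the translation factors were listed (16 of 62, Wilson 95% interval 16.6 to 37.9) against 32.6% of the other copies with a symbol (4436 of 13598, 31.8 to 33.4), and the interval of the translation factors contains the other share. In 6 pairs the L copy alone was listed, in 8 pairs the S copy alone, and in 1 pair, eif2b4, both were. Both copies were listed in 3.23% of the translation factor pairs and in 15.0% of the other pairs with a symbol. No test was made of these shares, because the members were chosen with earlier results of these data known. Wilson intervals here and below cover counting error only. They treat the L and S copies of a pair as independent where copies are counted, and the sites of a gene where sites are counted.

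**Figure D1:**
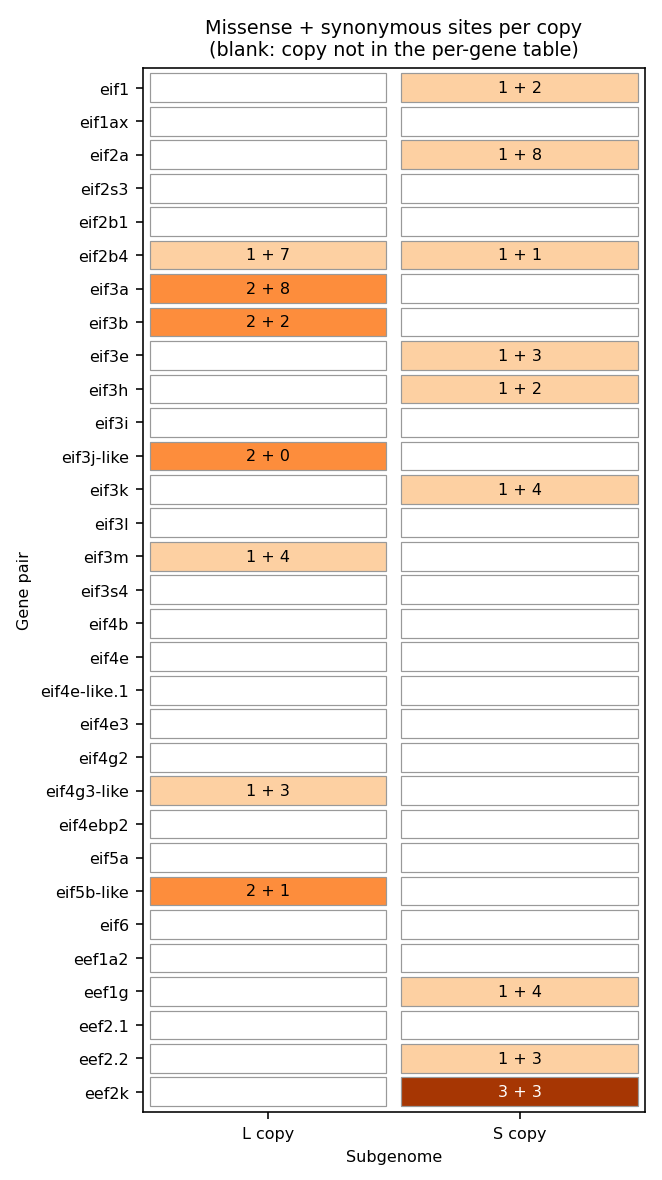
Sites in each of the 31 translation factor pairs, with the L copy on the left and the S copy on the right; each filled cell gives missense plus synonymous sites of a listed copy, darker cells hold more missense sites, and blank cells are copies outside the table. Filled cells number 16, and eif2b4 is the pair with both cells filled.

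Listed translation factors mostly held fewer missense than synonymous sites. Over the 16 copies there were 22 missense and 55 synonymous sites, so 28.6% of their coding sites were missense (Wilson interval 19.7 to 39.5). The other listed copies with a symbol had 9983 missense and 15867 synonymous sites, or 38.6% (38.0 to 39.2), and all listed copies 42.9%. The interval of the translation factors contains 38.6% and lies below 42.9%. Because entry to the table requires a missense site, all of these fractions are higher than they would be with the unlisted genes.

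A single missense site was found in 11 of the 16 copies (68.8%), against 53.5% of the other copies with a symbol. Among copies with a single missense site, the median number of synonymous sites was 3 in the translation factors and 1 in the other copies with a symbol. Synonymous sites outnumbered missense sites in 11 translation factor copies (68.8%), against 48.3% of the others. The counts were equal in eif2b4.S, eif3b.L and eef2k.S, and missense sites were more numerous in eif3j-like.L and eif5b-like.L. The mean was 1.38 missense and 3.44 synonymous sites per listed translation factor, beside 2.25 missense and 3.58 synonymous sites per other copy with a symbol. The synonymous means lay closer together than the missense means, but the medians did not follow this. The median was 1 missense site in both groups, and 3 synonymous sites in the translation factors against 2 in the others.

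Start codon selection and initiator tRNA delivery come first in the pathway. In eif1.S (Xelaev18045875m), which encodes the small factor that guards the fidelity of start codon choice, 1 missense and 2 synonymous sites were listed. Its change, Y114H, had no prediction because no homologous residue was aligned at that position. Changes are written with the reference residue before the position, which is numbered along the protein model of the deposited table. The copy eif2a.S (Xelaev18029801m) encodes eIF2A, a factor separate from the eIF2 complex that can also bring initiator tRNA to the ribosome. It held 1 missense and 8 synonymous sites, or 11.1% missense (Wilson interval 1.99 to 43.5), the lowest fraction among the 16 listed copies. Its V570I, an exchange of similar aliphatic residues, was predicted benign at a probability of damage of 0.015, a prediction that rested on 4 aligned residues.

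The eIF2B complex reloads eIF2 with GTP, and eif2b4 encodes its delta subunit. Its L copy (Xelaev18028434m) held 1 missense and 7 synonymous sites, and its S copy (Xelaev18030315m) held 1 and 1. Missense sites thus made up 12.5% for eif2b4.L and 50.0% for eif2b4.S, a difference not detectable with so few sites. Fisher's exact test (two-sided) of L against S gave p = 0.378, and an adjusted p of 1 over all 1329 pairs with both copies listed. Of these 1329 pairs, 0 passed after adjustment and 25 had an unadjusted p under 0.05 by the same test. With at least 5 sites in each copy, the minimum used for this test otherwise, no translation factor pair entered. Of the 480 pairs that entered, 0 (0%) passed Fisher's exact test after adjustment by Benjamini-Hochberg, and 16 (3.33%) had an unadjusted p under 0.05. The missense changes of the copies differed: T94P in eif2b4.L and N91D in eif2b4.S, both benign at a probability of 0. For T94P the prediction drew on 4 aligned residues and for N91D on 249. The copies were not aligned to each other, so whether these neighbouring positions correspond was not tested.

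The largest group was eIF3, the multi-subunit scaffold that holds the small ribosomal subunit, the other factors and the mRNA together. Of its 20 copies (10 pairs) 7 were listed, where 32.6% of the other copies with a symbol were listed. The 7 held 10 missense and 23 synonymous sites, or 30.3% missense (Wilson interval 17.4 to 47.3). The scaffold subunit eif3a.L (Xelaev18034294m) held 2 missense and 8 synonymous sites, the most coding sites of any listed translation factor. Both of its changes, T1312A and R1343Q, lay at positions without aligned residues and had no prediction. The core subunit eif3b.L (Xelaev18045232m) held 2 and 2. Its T376S and D573E were benign, at probabilities of 0.002 and 0.005, with 179 and 146 aligned residues behind them. Both exchanges replace a residue by a chemically similar one.

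Other eIF3 subunits held 1 missense site each, apart from eif3j-like.L. In eif3m.L (Xelaev18021967m) there were 1 missense and 4 synonymous sites, in eif3k.S 1 and 4, in eif3e.S 1 and 3, and in eif3h.S 1 and 2. The loosely bound subunit gene eif3j-like.L (Xelaev18018480m) held 2 missense and 0 synonymous sites and was the 1 listed translation factor without a synonymous site (6.25% of the 16, against 21.7% of the other copies with a symbol). Its T96A was benign at 0.012 and its R291G had no prediction.

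The eIF3 subunits also held the translation factor site with the highest predicted probability of damage. L354F in eif3m.L, a leucine exchanged for the larger aromatic phenylalanine, was probably damaging at a probability of 1, with 54 aligned residues. In contrast, L13I in eif3h.S was benign at 0, with 26 aligned residues. A337S in eif3e.S was benign at 0.446, and 0.446 is the highest probability of any benign site in the series, since possibly damaging sites begin at 0.447. D42E in eif3k.S, an exchange of acidic residues, had no prediction.

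Cap binding and recruitment are the work of the eIF4 proteins. Of their copies 1 of 12 was listed, or 1 of 14 with the cap-binding inhibitor eif4ebp2. Among the other copies with a symbol 32.6% were listed, and these small counts were not tested. The listed copy, eif4g3-like.L (Xelaev18027425m), is named for the eIF4G scaffolds that link the cap-binding protein to the ribosome. RefSeq's table gives eif4g3 as a synonym of eif4g1.S, so the name does not settle which eIF4G this is. It held 1 missense and 3 synonymous sites. Its V208M was possibly damaging at 0.788, on 2 aligned residues, the smallest number behind any predicted site of the translation factors.

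Subunit joining and later steps had 1 listed copy of 6, where 32.6% of the other copies with a symbol were listed. The listed copy was eif5b-like.L (Xelaev18012989m), named for the GTPase that joins the large ribosomal subunit. It held 2 missense sites and 1 synonymous site, or 66.7% missense (Wilson interval 20.8 to 93.9). L580R was benign at 0 on 4 aligned residues. N636H was benign at 0.170 on 114 aligned residues. The exchange of leucine for the charged arginine was thus scored lower than that of asparagine for histidine, and fewer aligned residues lay behind it.

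Of the 8 copies of eEF1 and eEF2 genes, 2 were listed (25.0%, against 32.6% of the other copies with a symbol), each with 1 missense site, which is also the median of all listed copies. The copy eef1g.S (Xelaev18024205m), a subunit of the exchange factor that reloads eEF1A with GTP, held 1 missense and 4 synonymous sites. Its E262D was benign at 0.017 with 121 aligned residues. The copy eef2.2.S (Xelaev18011119m), named for the GTPase that moves the ribosome along the mRNA, held 1 and 3. Its K241T was benign at 0.206 with 98 aligned residues. Both copies lie on S, and their L partners were not listed.

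The kinase eef2k.S (Xelaev18047630m), which phosphorylates eEF2 and so slows elongation, held the most amino acid changes, with 3 missense and 3 synonymous sites (50.0% missense, Wilson interval 18.8 to 81.2). It was the 1 translation factor copy with 3 missense sites, and it held 2 of the 4 damaging sites of all translation factors. P422S was probably damaging at 0.928 with 47 aligned residues, D5N was possibly damaging at 0.732 with 43, and S628C was benign at 0.084 with 52. The copy eef2k.L was not listed.

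Predicted damage was found in 3 of the 16 listed copies (18.8%): eif3m.L, eif4g3-like.L and eef2k.S. Of all listed copies with a symbol 32.1% held at least 1 damaging site. These shares by copy do not allow for the missense sites per copy, on average 1.38 in the translation factors and 2.25 in all listed copies with a symbol. Counted by site, 4 of 17 predicted sites of the translation factors were damaging (23.5%, Wilson interval 9.56 to 47.3), 2 of them possibly and 2 probably. Among the other listed copies with a symbol it was 1927 of 9002 (21.4%, 20.6 to 22.3), which lies inside the interval of the translation factors. Without eef2k.S, 2 of 14 predicted sites were damaging (14.3%, 4.01 to 39.9). No translation factor copy had the 5 predicted sites that were required to test its damaging share, since the highest number was 3. Over the whole series 1112 copies were tested, of which 0 (0%) passed Fisher's exact test after adjustment by Benjamini-Hochberg and 35 (3.15%) had an unadjusted p under 0.05.

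**Figure D2:**
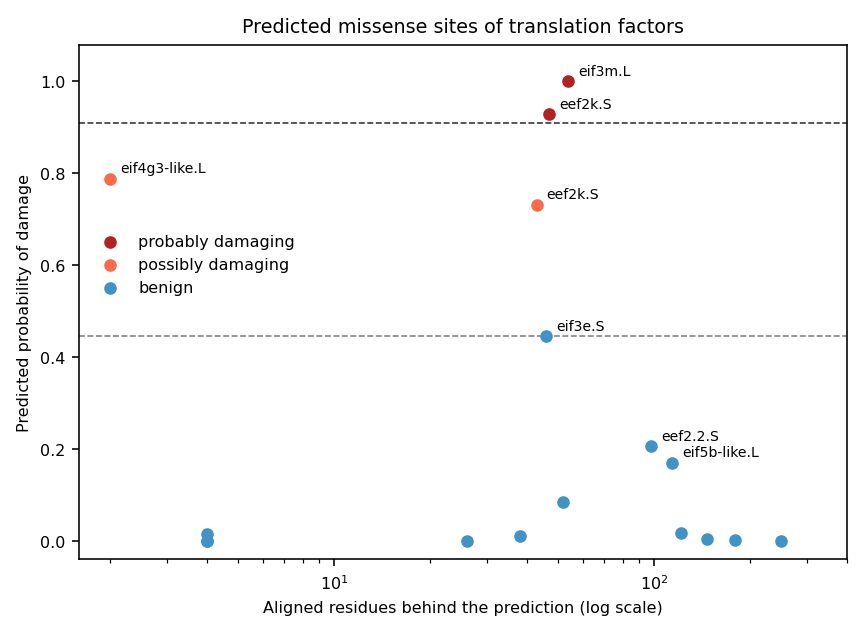
Predicted probability of damage of the 17 predicted translation factor sites against the number of aligned residues behind each prediction (log axis); colours give the prediction class and dashed lines the lowest probabilities of possibly (0.447) and probably damaging sites (0.909). The site of eif3e.S lies just under the lower line at 0.446, and the damaging site of eif4g3-like.L rests on 2 aligned residues, whereas those of eif3m.L and eef2k.S rest on 43 to 54.

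Alignment depth behind the predictions had similar medians. It was 47 aligned residues for the predicted sites of the translation factors and 49 for those of the other copies with a symbol, and fewer than 10 residues lay behind 4 of 17 (23.5%) and 23.8% of the sites. The median predicted probability was 0.017 in the translation factors and 0.01 in the other copies with a symbol. Sites without a prediction made up 22.7% of the missense sites of the translation factors (5 of 22, in eif1.S, eif3a.L, eif3j-like.L and eif3k.S), against 9.83% in the other copies with a symbol. At all 5 sites the number of aligned residues was 0.

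PolyPhen-2, the predictor used, scores how well the reference and the variant residue suit the aligned family, and the difference of these profile scores (reference minus variant) is large where the variant residue is unusual. The 4 damaging sites had the 4 largest differences of the translation factors: 2.28 in eif3m.L, 1.96 for P422S and 1.81 for D5N in eef2k.S, and 1.85 in eif4g3-like.L. The next was the benign K241T in eef2.2.S with 1.41. The difference enters the prediction and is no separate evidence for it. At 5 of 17 sites (29.4%) the variant residue scored better than the reference residue, against 41.1% of the sites of the other copies with a symbol. The widest margins of this kind were T94P in eif2b4.L (-1.57) and L580R in eif5b-like.L (-1.46), each on 4 aligned residues. The 4 damaging sites are also the 4 that the predictor's second, binary class calls deleterious. In the whole series that class held all 1679 probably damaging sites, 2785 of 3124 possibly damaging sites and none of the 19307 benign sites. The overlap is thus no separate evidence either.

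The table also gives the sequence identity of the nearest homologue that carries another residue at the position. It was listed for 15 of the 17 predicted sites and not for L354F in eif3m.L and V208M in eif4g3-like.L. Its median was 70.6% in the translation factors and 74.4% in the other copies with a symbol. It was highest for L13I in eif3h.S (93.1%), E262D in eef1g.S (92.7%) and N91D in eif2b4.S (91.6%), all benign, so a close relative already carried another residue at these 3 positions. It was lowest for T96A in eif3j-like.L (51.2%). For both damaging sites of eef2k.S it was 61.0%, and for the benign S628C of that copy 70.6%.

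Exchanges of similar residues were counted next. Exchanges within a class of similar side chains made up 7 of 22 sites (31.8%), against 33.6% in the other copies with a symbol; the classes were aliphatic with methionine, aromatic, polar, basic and acidic, and cysteine, glycine and proline stood alone. Of these 7, exchanges of aspartate and glutamate made up 3 (D573E in eif3b.L, D42E in eif3k.S and E262D in eef1g.S), or 13.6% of the 22 sites against 4.54% elsewhere. Threonine was the reference residue at 4 sites (18.2%, against 7.86%), in eif2b4.L, eif3a.L, eif3b.L and eif3j-like.L. These features were picked after the sites were seen and have no test.

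Single copies were tested for a missense fraction that differs from that of all other listed genes. Of the 16 listed copies 7 had the 5 sites required, and 0 passed a two-sided Fisher's exact test, adjusted by Benjamini-Hochberg over the 5005 copies tested in the series, of which 66 (1.32%) passed. None of the 7 had an unadjusted p under 0.05, which 543 of all copies tested (10.8%) had. The smallest was that of eif2a.S (11.1% missense, Fisher's exact p = 0.0879, adjusted p = 0.525), followed by eif2b4.L (12.5%, p = 0.149, adjusted p = 0.637) and eif3a.L (20.0%, p = 0.205, adjusted p = 0.676). The copies eif3k.S, eif3m.L and eef1g.S had 1 missense and 4 synonymous sites each (20.0%; adjusted p = 0.778 by Fisher's exact test), and eef2k.S had 50.0% (adjusted p = 1). The fraction was under the series' 42.9% in 6 of the 7, and in 66.6% of all copies tested.

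The number of sites set a firm limit on this test. A listed copy has at least 1 missense site, and with 1 missense site it passed only from 18 synonymous sites upward, whereas no translation factor held more than 8. Even eif3a.L, with 10 sites, could have reached no lower than p = 0.0512 by Fisher's exact test on the side of few amino acid changes. On the side of many changes, eif2a.S and eif3a.L alone of the 7 held enough sites to pass. A low missense fraction of a single translation factor was thus not detectable with these numbers of sites.

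**Figure D3:**
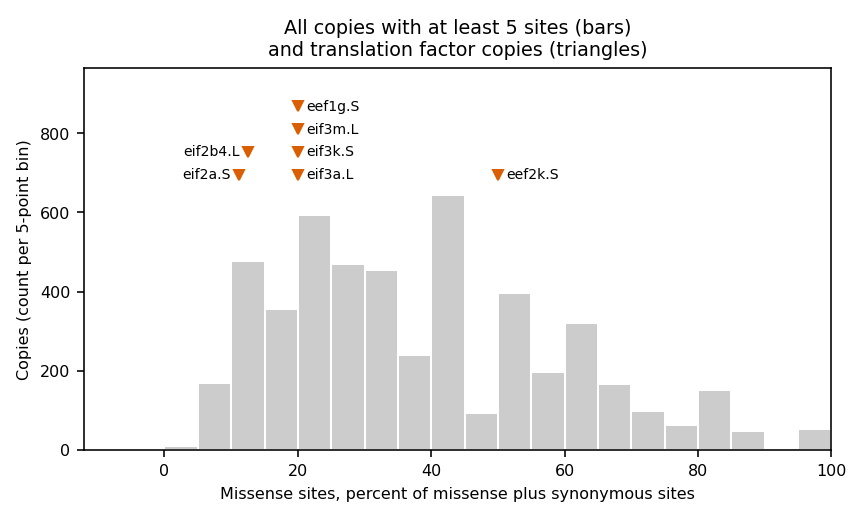
Missense percent (missense over missense plus synonymous sites) of all 5005 copies with at least 5 sites, as bars of copies per 5-point bin, with the 7 translation factor copies as triangles placed above the bars at their own percent (their height has no meaning). Of the 7, 6 stand between 11.1% and 20.0%, and eef2k.S stands at 50.0%.

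Other genes of the pathway were counted from a list of 87 symbols. The list covers regulators of the cap and the poly(A) tail, signalling by mTOR and MAP kinases, and the stress response to eIF2 phosphorylation. It further covers termination and rescue, enzymes that modify factors, mitochondrial factors, and secisbp2l, which is related to a selenocysteine insertion factor. In the group labelled modification of eIF5A and eEF2, both listed copies were of secisbp2l. It also covers scanning, helicases and ribosome recycling, where 0 of 8 copies were listed. Of the 87 symbols 36 were found among the gene pairs, with 72 copies. Of these copies 19 were listed (26.4%, against 32.6% of all copies with a symbol). The 19 listed copies held 45 missense and 96 synonymous sites (31.9% missense, Wilson interval 24.8 to 40.0, against 38.6% in all listed copies with a symbol). Of 40 predicted sites 13 were damaging (32.5%, against 21.4% of all listed copies with a symbol). The copy ddit3.S held 5 of these 13, and without it 8 of 32 were damaging (25.0%). Of 13 copies tested, 1 passed with a low and 0 with a high missense fraction, where 0.699% and 0.619% of all copies tested passed in these directions. The copy that passed was rictor-like.S, named for a scaffold of the second mTOR complex and chosen here after its value was seen. It had 1 missense and 19 synonymous sites (adjusted p = 0.0354 by Fisher's exact test), and its adjusted p ranged from 0.0137 to 0.0981 under the other settings. It no longer passed with no minimum of sites (adjusted p = 0.0821), when the 1% of genes richest in sites was left out (0.0610) or against copies with a symbol (0.0981), by the same Fisher's exact test.

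Among the listed copies of these genes, those with the most missense sites are given here, with ties at the lowest place going to the copy with the most synonymous sites. The stress-induced transcription factor ddit3.S, which acts downstream of eIF2 phosphorylation, held 8 missense sites and 1 synonymous site, and 5 of its 8 predicted sites were damaging (missense fraction, Fisher's exact adjusted p = 0.170). The copy gcn1l1.S, which encodes an activator of the eIF2 kinase GCN2, held 5 and 11 (Fisher's exact adjusted p = 0.816). The RNA-binding protein gene larp4b.S held 5 and 2, secisbp2l.L, related to a selenocysteine insertion factor, 3 and 5, the deadenylase subunit gene pan3.L 3 and 2, and the ribosome collision sensor gene znf598.L 2 and 11. None of these 6 passed (Fisher's exact adjusted p from 0.170 to 1).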

How the data were processed

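RNA from whole Xenopus laevis embryos was depleted of ribosomal RNA before library construction, per the labels' protocols. CASAVA 1.8.2, TopHat, SAMtools and Trimmomatic are the tools that the submitters' processing notes list, with no role for any of them. Which program called variants, with which filters and on which build, is not given in the sources used here. Groups follow the sample titles, because the strain letter codes in other labels contradict each other.

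The authors deposited counts of variant sites per gene. A per-site table holds, per the file headers, the PolyPhen-2 probability that a change is damaging (a fraction), profile scores, aligned residues and protein positions. It also holds, as deposited, the percent identity to the nearest differing homologue. Another deposited table pairs names with L and S copies. Of 11604 per-gene entries, 1 was a header line and was left out; class counts of all 11603 genes equalled the per-site tallies. A symbol is a name other than a LOC, MGC or clone number or a gene model identifier.

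Each copy was compared with the sum of all other listed copies, and L with S copies within pairs, by Fisher's exact test (two-sided, scipy 1.17.1, Python 3.11.15), with Benjamini-Hochberg adjustment over the whole table, a threshold of 0.05 and a minimum of 5 sites. The per-gene and the pair tests were also run on simulated data. Changes were planted there only in copies with more sites than any translation factor held, and pairs were simulated without a difference. The simulations therefore do not show whether a change in a translation factor would be found. The members, gene lists and tests were chosen with earlier results of these data known. All listed members were named; of the wider pathway list, up to 6 copies with the most missense sites were named, with ties going to the most synonymous sites. Alternatives were other minimums of sites, other definitions of damage, at least 10 aligned residues, and subsets of members.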

Additional observations from a re-analysis of the deposited data

How the results depend on the processing

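No translation factor copy passed for its missense fraction under any of the 4 alternatives for that test (at least 10 sites per gene, no minimum, copies with a symbol as comparison, or leaving out the 1% of genes richest in sites), and all 16 listed copies entered with no minimum but eif3a.L alone with at least 10 sites. Adjusted p-values of the 7 copies over these settings ranged from 0.432 to 1 (Fisher's exact test). The numbers of sites limited these outcomes, as in the main test. With either of the other minimums, a low fraction could not have passed. Even eif3a.L, with the most sites, could reach no lower than p = 0.0512 by Fisher's exact test. On the side of many changes it could reach 0.00021 by the same test. Whether that would pass was worked out for the main setting only. Of all copies tested, 66 of 5005 passed in the main setting, 28 of 11603 with no minimum of sites, and 4 of 2012 among copies with a symbol. When the 1% of genes richest in sites was left out, 14 of 4889 passed, and with at least 10 sites per gene 86 of 1943.

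For the damaging share, 0 copies passed, against 1 with probably damaging sites only and 1 at a probability of at least 0.9; no translation factor was tested there. With no minimum of predicted sites, 13 translation factor copies were tested and 0 passed, with 0 at an unadjusted p under 0.05 by Fisher's exact test. Of all 10180 copies tested at that setting, 0 passed and 175 had an unadjusted p under 0.05. A translation factor copy held at most 3 predicted sites, so a pass was out of reach and the 0 carries no information on these copies. For L against S, 0 pairs passed and 1 passed with at least 10 sites in each copy, which was not a translation factor pair. The pooled missense fraction of the translation factors, 28.6%, ranged from 25.0% (without copies whose name ended in -like or a number) to 29.9% (without eif3a.L). The unweighted mean over the 7 copies with at least 5 sites, which is not a pooled value, was 21.9%. Among copies with at least 5 sites, the median was 20.0% in the translation factors and 30.0% in the other copies with a symbol. The damaging share of the translation factors was 23.5%. It was 11.8% (2 of 17) with probably damaging sites only or at a probability of at least 0.9. By those definitions 8.16% and 8.57% of the predicted sites of all copies with a symbol were counted. With at least 10 aligned residues the share was 23.1% (3 of 13), against 20.8% in all copies with a symbol, and without eef2k.S it was 14.3%. The setting of core factors only holds the same 15 listed copies as the setting without eef2k.S, so it is no separate alternative. No paired analysis was possible because the tables name no library and each group has 1 library.

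Read depth per site and per copy was not analysed here, and small numbers of sites limit every value of a single copy.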
